A study of Saccharomyces cerevisiae with 36 samples.

Results

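The 34 nuclear genes that carry the names MRPL1 to MRPL51 in the budding yeast Saccharomyces cerevisiae encode proteins of the large subunit of the mitochondrial ribosome. They were taken by systematic name from the tables of an RNA-seq series; the rule used no measured value, but the set was picked for description when earlier results of these data were known. All 34 were among the 6403 genes of the count table and among the 6172 genes of the normalised table, and all 34 passed the filter on low counts that left 6038 genes for testing.

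The mitochondrial ribosome translates the few proteins that yeast mitochondrial DNA encodes, most of them subunits of the respiratory chain and of ATP synthase. Its own proteins are made in the cytosol from nuclear genes and are then imported, so a yeast cell keeps separate gene sets for its cytosolic and its mitochondrial ribosomes. Heat shock is known to repress the genes of the cytosolic ribosome and of its assembly, and mRNAs of mitochondrial ribosomal proteins are the best known targets of Puf3, an RNA-binding protein that recognises a short element in their 3′ ends.

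The study compared 36 libraries in 12 groups of 3 replicates. The strain with a deleted MIP6 gene (mip6Δ) and the wild type (WT) were both in the haploid BY4741 background, growing exponentially in rich medium (YPD). In the memory condition a culture received a heat shock of 20 min, recovered for 60 min and was then shocked again. The no-memory flask from the split culture received only the last shock. Each shock was given by adding medium at 51 °C to the culture, and the cells were then held at the lower temperature of the mixture. The groups were mip6Δ memory, mip6Δ no-memory, WT memory and WT no-memory cells, each collected at 0, 15 and 20 min of the last shock. The deletion strain came from a collection in which a drug-resistance cassette replaces the gene. MIP6, which encodes an RNA-binding protein linked to mRNA export, had 0 reads in all 18 mip6Δ libraries, against 134 to 626 reads in the 18 WT libraries. LEU2, MET15 and URA3, which are deleted in BY4741, were not among the genes of the count table. For the MATa his3 part of the genotype, MATALPHA1 had 1 to 3 reads in every library. MATALPHA2 had 266 to 1004 reads and HIS3 722 to 2994. The source of these reads was not tested.

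Libraries held 28270651 to 42233578 reads assigned to genes, of which the 34 MRPL genes took 0.109% to 0.19%. The lowest count of a member in any library was 378 reads and the highest 4227. The time of mip6Δ memory 0 min replicate 2 is given as 0 min in 2 labels and as 20 min in another. Its HSP26 level, 10.1 CPM (counts scaled to a common library size, with TMM factors), lay within the 9.7 to 10.7 CPM of the other libraries of that group and far below the 5549 CPM or more of mip6Δ memory cells at 20 min, and it was kept at 0 min. Among the WT memory libraries at 0 min, replicate 1 lay far above the others, with 2799 CPM of the disaggregase gene HSP104 against 555 and 180 CPM in replicates 2 and 3. Replicate 1 was the highest and replicate 3 the lowest for HSP104 in all 4 groups at 0 min: 596, 338 and 173 CPM in mip6Δ memory, 4589, 2505 and 1822 CPM in mip6Δ no-memory and 5140, 3455 and 2099 CPM in WT no-memory cells. At 0 min HSP104 lay at 173 to 596 CPM in mip6Δ memory libraries, below the 1822 to 5140 CPM of the no-memory libraries of both strains. SSA4 lay at 49.8 to 76.8 CPM in the former and at 522 to 2807 CPM in the latter. HSP26 was also lower in every mip6Δ memory library than in any no-memory library. HSP12 overlapped, with 9.3 to 13.2 CPM against 7.3 to 56.7 CPM. The starting points of the memory conditions thus differed in several heat-shock genes. The no-memory libraries at 0 min are the baseline of all no-memory heat responses below. The part of these differences in the results was not tested.

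All 34 genes shared a feature that their choice did not use. The element TGTANATA, the core recognised by Puf3, was searched on the coding strand in the 200 bases after the stop codon of the R64 reference (the build the study calls sacCer3), from RefSeq. It was present for 34 of 34 MRPL genes (100%), against 844 of 6008 protein-coding genes (14%). The first site began 13 to 136 bases after the stop codon, with a median of 47.5, and 26 genes had 1 site and 8 had 2. The base 2 positions before the site was C in 25 of 34 MRPL genes (73.5%), against 218 of the 810 other genes with a site (26.9%). The sites of the members that the results below turn on are given here with 11 bases on each side, 5′ to 3′ on the coding strand, with the 8 bases of the element in capitals.
MRPL23: tcttcaatccaTGTATATAtttatctgtta
MRPL27: ttcaatatgcgTGTAAATActagttttcga
MRPL28: ctgtctcctgcTGTAAATAactgatgatca
MRPL37: tttggtatcctTGTAAATAaatatgtgtgt
MRPL15: aaaaatttatcTGTAAATAgtgatcgaaat
MRPL20: aataacaatcgTGTAAATActactctataa
MRPL13: ttttaatatccTGTACATAtatatactctt
MRPL19: ctgatctattcTGTAAATAtgtatataagt
MRPL24: tggttttccccTGTATATAaaaaagcatat
MRPL8: gtgtattccctTGTAAATAtatagatgaca
The site of MRPL23 lies at chrXV:612535-612564 (plus strand), that of MRPL27 at chrII:768698-768727 (plus), that of MRPL28 at chrIV:1386537-1386566 (plus) and that of MRPL37 at chrII:741638-741667 (plus). The sites of MRPL15 and MRPL20 lie at chrXII:760291-760320 (plus) and chrXI:599049-599078 (minus), those of MRPL13 and MRPL19 at chrXI:450358-450387 (minus) and chrXIV:292088-292117 (minus), and those of MRPL24 and MRPL8 at chrXIII:650856-650885 (plus) and chrX:315714-315743 (minus).

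**Figure D1:**
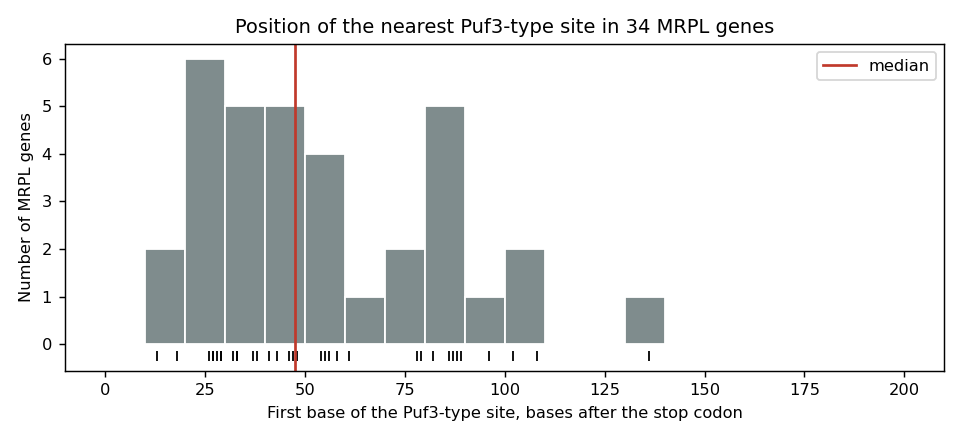
Number of MRPL genes (vertical axis) by the first base of their nearest Puf3-type site, in bases after the stop codon (horizontal axis, bins of 10 bases); ticks mark single genes and the line the median. The 34 sites begin between 13 and 136 bases, with a median of 47.5.

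The element was nearly as common among the other genes of mitochondrial translation. It followed 11 of 11 genes for large-subunit proteins with other names, 29 of 30 small-subunit genes, 7 of 8 genes for mitochondrial translation factors and 4 of 6 for assembly of the mitochondrial ribosome. It followed only 2 of 27 genes for nuclear-encoded subunits of the respiratory chain and ATP synthase, 3 of 17 for assembly of the cytosolic 60S subunit and 3 of 76 for cytosolic large-subunit proteins. The promoter element AAATTTT, searched on both strands from 250 bases before to 50 bases after the start codon as an element of ribosome assembly genes, was found for 5 of 34 MRPL genes (14.7%), against 1392 of 6008 protein-coding genes (23.2%), whereas all 17 genes for 60S assembly held it. A match to letters is a description and does not show that a factor acts there.

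The MRPL transcripts were of moderate and similar abundance. On the scale of CPM per 1000 bases of coding sequence, averaged over all 36 libraries, the highest was MRPL19 (YNL185C), the counterpart of bacterial uL11 at the base of the stalk, with 116 ± 16.6 (SD over the 36 libraries), and the lowest MRPL24 (YMR193W), the counterpart of bL28, with 37.2 ± 9.16. MRPL36 (YBR122C, bL31m) at 111 ± 12, MRPL51 (YPR100W, mL43) at 110.3 ± 20.8 and MRPL23 (YOR150W, uL13m) at 109.8 ± 17.6 followed MRPL19 and differed from it by less than that spread. The coding sequence of MRPL19 shares 113 bases with YNL184C on the same strand, and that of MRPL51 shares 323 bases with YPR099C on the opposite strand, so how reads were divided there is uncertain. Between the group with the highest and the group with the lowest mean, levels of single members differed by 1.21-fold (MRPL11) to 1.90-fold (MRPL24). The map of group means shows the main contrast, between 0 min and the heated libraries, in all 4 combinations of strain and condition.

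**Figure D2:**
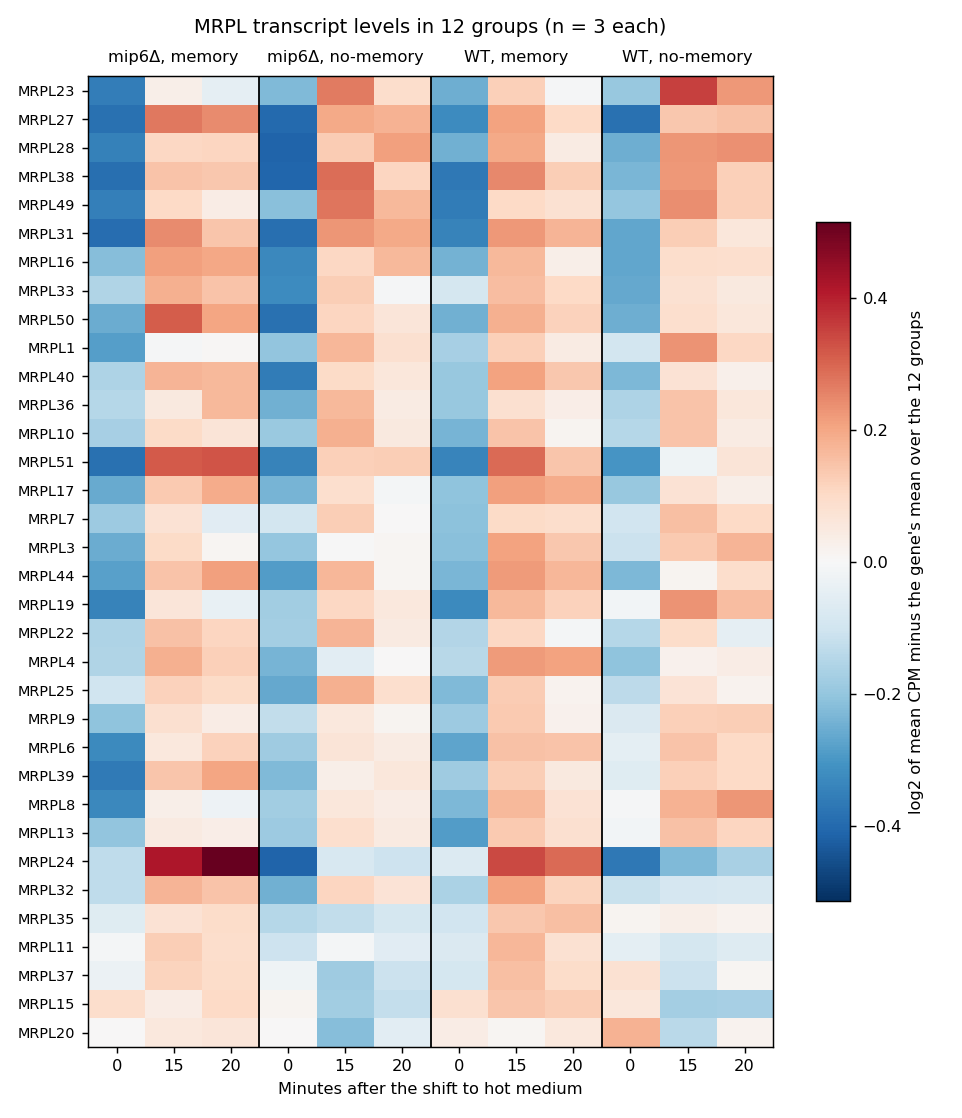
Group means of the 34 MRPL transcripts (rows) in 12 groups of 3 libraries (columns, minutes in hot medium within mip6Δ memory, mip6Δ no-memory, WT memory and WT no-memory cells); colour is the log2 of the mean CPM minus the gene's mean over the groups. Rows are in the order of the WT no-memory response at 15 min, from MRPL23 at the top to MRPL20 at the bottom; most rows are lowest at 0 min, and MRPL24 has the widest range, 1.90-fold.

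Heat raised most MRPL transcripts, modestly and in both strains. Calls are from edgeR's quasi-likelihood test at a Benjamini-Hochberg adjusted p under 0.05 over all 6038 genes, and fold changes are log2 ratios of the later over the earlier time. At 15 min, 28 of 34 members were higher and 0 lower in mip6Δ memory cells (median 0.34, 1.27-fold), where 33.3% of all genes tested were higher and 35% lower. In mip6Δ no-memory cells 27 were higher and 1 lower (median 0.35, 1.28-fold), against 37% higher and 37.4% lower among all genes. In WT memory cells 32 were higher and 0 lower (median 0.39, 1.31-fold), against 31.7% and 32.6%. In WT no-memory cells 21 were higher and 2 lower (median 0.25, 1.19-fold), against 35.9% and 36%. The median over all genes tested lay between -0.0095 and 0.014 in these 4 comparisons.

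The same direction held at 20 min. In mip6Δ memory cells 28 members were higher and 0 lower (median 0.30; all genes, 32.2% higher and 32.5% lower), and in mip6Δ no-memory cells 23 were higher and 0 lower (median 0.28; all genes, 36.5% and 36.3%). In WT memory cells 26 were higher and 0 lower (median 0.29; all genes, 29.1% and 29.8%), and in WT no-memory cells 20 were higher and 0 lower (median 0.21; all genes, 34.8% and 34%). Between 15 and 20 min no member was called in any combination, by edgeR, DESeq2 or limma. At an unadjusted p under 0.05 there were 2 in mip6Δ no-memory cells and 0 in each of the other three. All genes gave calls in 0.182% of mip6Δ memory, 0.199% of mip6Δ no-memory, 0.132% of WT memory and 1.28% of WT no-memory tests for that step. Across the 8 comparisons with 0 min, 15 members were higher in all 8, as were 22.8% of all genes tested. Only MRPL15 and MRPL20 were higher in none, against 54.2% of all genes tested. These comparisons share their 0 min libraries within each combination.

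The largest rises in WT no-memory cells were those of MRPL23, MRPL27 and MRPL28. MRPL23, the counterpart of bacterial uL13, had 62.4, 70.3 and 71.9 CPM at 15 min, against 44.5, 48.5 and 46.9 CPM at 0 min in WT no-memory cells. The groups did not overlap, and edgeR gave a log2 fold change of 0.55 ± 0.081 (SE; adjusted p = 7.57e-07). In WT memory cells MRPL23 had 57.2, 52.6 and 64.6 CPM at 15 min, against 43.0, 45.8 and 45.9 CPM at 0 min. That was a rise of 0.37 ± 0.080 (adjusted p = 0.000211, edgeR), again without overlap.

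MRPL27 (YBR282W), which encodes the mitochondria-specific protein mL41, had 29.5, 30.4 and 34.6 CPM at 15 min, against 22.6, 22.2 and 21.0 CPM at 0 min in WT no-memory cells. It rose by 0.52 ± 0.11 there (adjusted p = 8.57e-05, edgeR) and by 0.53 ± 0.11 in WT memory cells, and by 0.65 ± 0.11 and 0.59 ± 0.11 in mip6Δ memory and mip6Δ no-memory cells. MRPL28 (YDR462W), for mL40, had 31.2, 31.8 and 32.9 CPM at 15 min, against 22.4, 23.5 and 23.0 CPM at 0 min in WT no-memory cells. Its rise was 0.48 ± 0.094 (adjusted p = 5.06e-05, edgeR), and the groups did not overlap.

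At the other end stood MRPL20, MRPL15 and MRPL37, all of which encode proteins with no bacterial counterpart. MRPL20 (YKR085C), for mL58, had 31.9, 31.0 and 32.2 CPM at 15 min, against 37.9, 41.0 and 39.6 CPM at 0 min in WT no-memory cells. It fell by 0.32 ± 0.091 on the log2 scale (adjusted p = 0.00277, edgeR), with no overlap between the groups. In mip6Δ no-memory cells MRPL20 also fell, by 0.22 ± 0.091 (adjusted p = 0.0308, edgeR), although there 1 of the 0 min libraries, at 32.1 CPM, was close to the highest 15 min library, at 31.8 CPM. In memory cells MRPL20 did not pass the test: 0.052 ± 0.090 in mip6Δ and -0.027 ± 0.090 in WT.

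MRPL15 (YLR312W-A), for mL57, the partner of mL44 in a pair related to ribonuclease III, had 28.0, 26.1 and 28.1 CPM at 15 min, against 34, 32.8 and 29.7 CPM at 0 min in WT no-memory cells. The difference, -0.23 ± 0.10, was close to the threshold (adjusted p = 0.0457, edgeR) and lost the call without any single replicate number (-0.28 to -0.18). MRPL37 (YBR268W), for mL54, had 24.2, 23.3 and 28.0 CPM at 15 min, against 26.6, 29.2 and 30.0 CPM at 0 min; the groups overlapped, and -0.19 ± 0.092 did not pass (adjusted p = 0.0709, edgeR). By role, 14 of the 21 members with a bacterial counterpart were higher and 0 lower at 15 min in WT no-memory cells (median 0.25), and 7 of the 13 mitochondria-specific members were higher and 2 lower (median 0.24). In WT memory cells these counts were 21 of 21 and 11 of 13, with none lower.

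**Figure D3:**
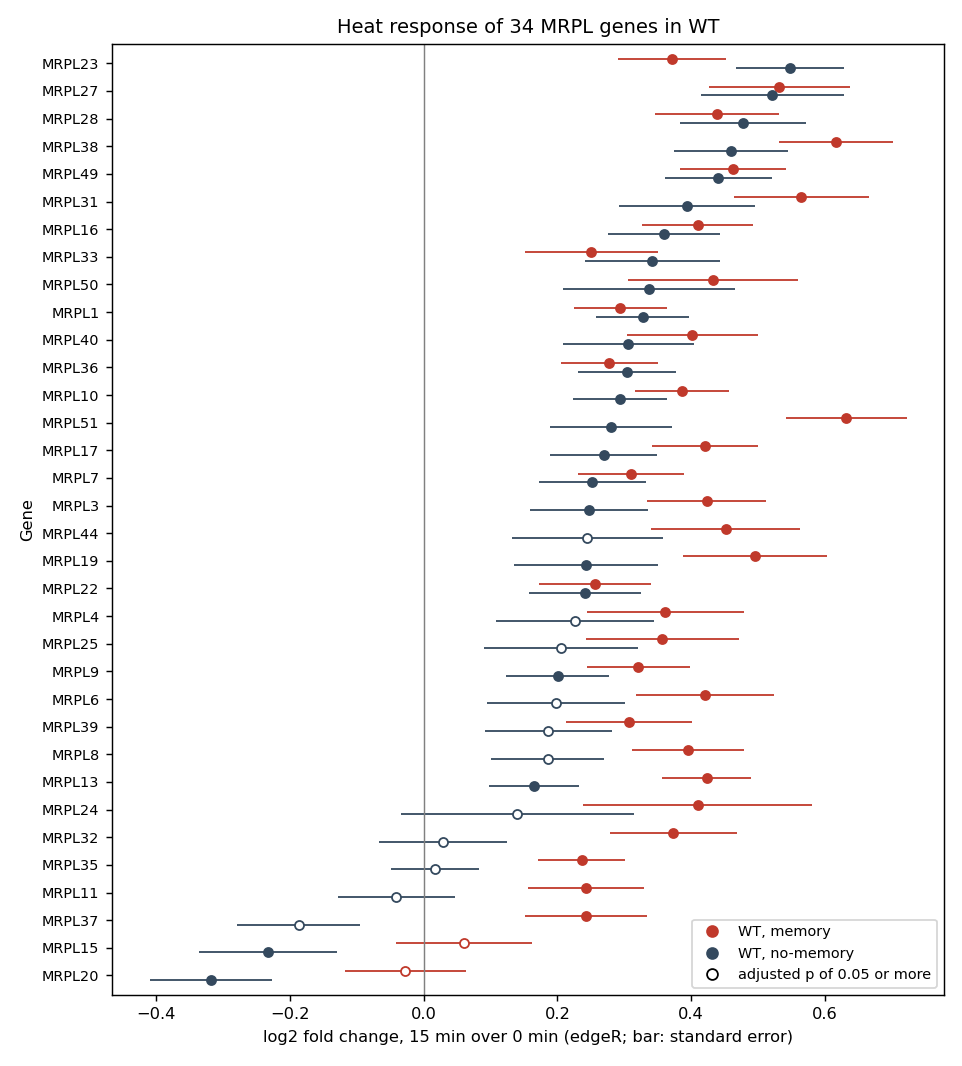
Log2 fold change at 15 min over 0 min for each MRPL gene (rows) in WT memory and WT no-memory cells, with standard errors from edgeR; open points did not pass an adjusted p of 0.05. In WT memory cells 32 of 34 genes passed, all higher; in WT no-memory cells 21 were higher and 2, MRPL15 and MRPL20, lower.

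Leaving out all libraries with 1 replicate number, so that 2 libraries a group remained, moved some of these counts by more than 1.5 times. Without replicate 3, 15 members were called at 15 min and 12 at 20 min in WT no-memory cells, and without replicate 2 the counts at 20 min were 9 in WT no-memory, 9 in WT memory and 11 in mip6Δ no-memory cells, with no member lower at 20 min. The share of all genes called in these reduced fits is not set beside these counts, so they do not compare members with all genes. Without WT memory 0 min replicate 1 alone, an alternative chosen after seeing the data, 30 members were called at 15 min and 24 at 20 min in WT memory cells, all higher.

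Among the other genes of mitochondrial translation, those that passed the test were mostly higher after heat, whereas nearly all genes of the cytosolic large subunit were lower. At 15 min in WT memory cells, 9 of 11 large-subunit genes with other names, 24 of 30 small-subunit genes, 6 of 8 translation factor genes and 3 of 6 assembly genes were higher and none lower, with medians of 0.35, 0.35, 0.54 and 0.28, where 31.7% of all genes were higher and 32.6% lower. In WT no-memory cells these counts were 7, 15, 5 and 3 higher, with 1 small-subunit gene lower, and the medians 0.22, 0.23, 0.35 and 0.20; 35.9% of all genes were higher there, so 15 of 30 small-subunit and 3 of 6 assembly genes are not far from that share. Of the 76 genes for cytosolic large-subunit proteins, 74 were lower and 0 higher in WT memory cells (median -1.94), and 75 were lower and 1 higher in WT no-memory cells (median -3.91). Genes for assembly of the 60S subunit were lower in 15 of 17 cases in WT memory cells (median -0.91) and in 16 of 17 in WT no-memory cells (median -1.87).

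Single genes of these lists show the sizes, each in WT no-memory cells at 15 min against 0 min (mean CPM ± SD, n = 3). MRP49, for another large-subunit protein, averaged 41.8 ± 3.4 at 15 min and 24.7 ± 1.26 at 0 min, and RML2, the counterpart of bacterial uL2, averaged 100.3 ± 8.61 and 72.0 ± 3.69. The small-subunit genes PET123 and RSM18 rose by 0.55 ± 0.098 and 0.51 ± 0.15 on the log2 scale (SE), whereas RSM26, for another small-subunit protein, fell by 0.33 ± 0.083. MEF2, for an elongation factor-like GTPase that acts in ribosome recycling, averaged 76.0 ± 1.84 at 15 min and 25.3 ± 2.73 at 0 min, the widest change among the translation factor genes.

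Among the remaining genes, AIM23, for mitochondrial initiation factor 3, rose by 0.89 ± 0.14, and the assembly genes MTG1, for a GTPase, and MRM2, for an rRNA methyltransferase, rose by 0.46 ± 0.16 and 0.41 ± 0.095. On the cytosolic side RPL9A averaged 31.7 ± 9.79 CPM at 15 min and 1152 ± 132 CPM at 0 min, and RPL26B fell by 5.01 ± 0.36 on the log2 scale. RPL15B, which is normally expressed far below its duplicate, was the 1 gene of that list that rose (0.87 ± 0.17). The 60S assembly genes NOP7 and ERB1, whose products work in a common complex, fell by 2.91 ± 0.34 and 2.55 ± 0.35.

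**Figure D4:**
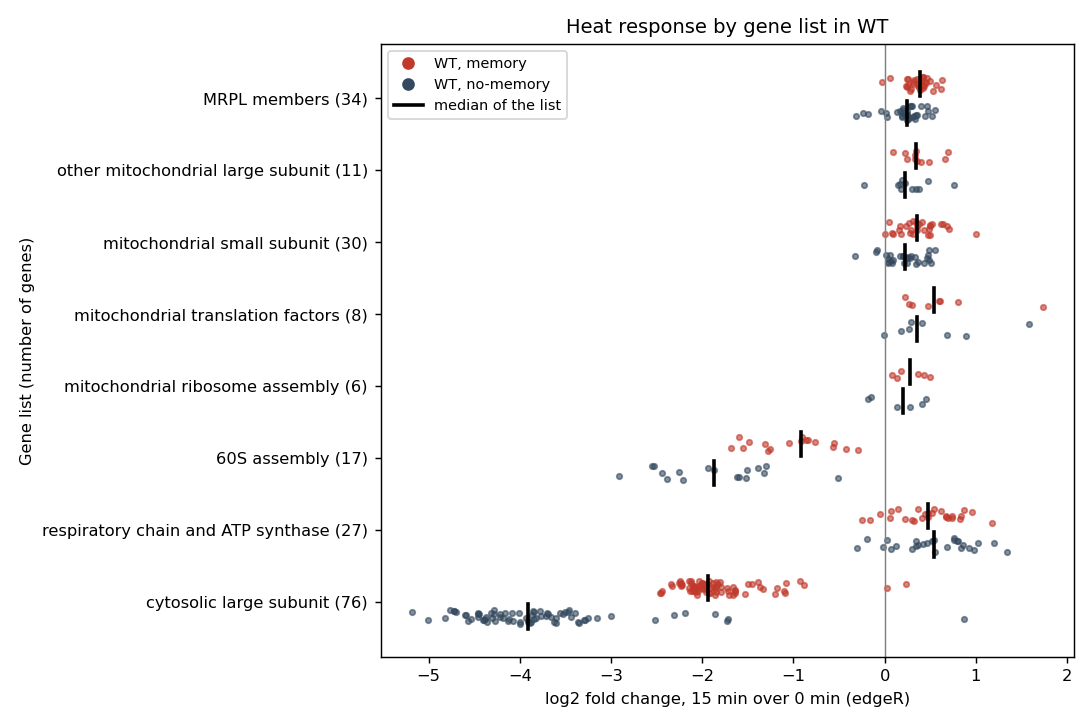
Log2 fold change at 15 min over 0 min in WT memory and WT no-memory cells for the genes (points) of 8 lists, with the number of genes in brackets and the median as a black bar. The 5 lists of mitochondrial translation have medians between 0.20 and 0.54, and the 76 cytosolic large-subunit genes have medians of -1.94 in memory and -3.91 in no-memory cells.

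The nuclear genes of the respiratory chain and ATP synthase, whose partner subunits the mitochondrial ribosome makes, mostly rose: 20 of 27 were higher and 0 lower in WT memory cells (median 0.48), and 21 higher and 1 lower in WT no-memory cells (median 0.54). QCR8 and QCR10, for subunits of complex III, rose by 1.35 ± 0.099 and 1.20 ± 0.14 in WT no-memory cells, and ATP5, for the stalk subunit of ATP synthase, fell by 0.30 ± 0.13. From 15 to 20 min all 27 of these genes had a negative estimate in WT no-memory cells (4 passed; median -0.33), whereas the MRPL median for that step was -0.022. Transcripts of 2 known regulators were looked up as single genes. HAP4, the limiting subunit of the activator of respiratory genes, averaged 55.2 ± 3.67 CPM at 15 min and 191 ± 43.5 CPM at 0 min in WT no-memory cells, a fall of 1.79 ± 0.23 on the log2 scale (adjusted p = 5.32e-08, edgeR). PUF3 averaged 50.9 ± 5.96 and 42.8 ± 3.28 CPM, a difference of 0.25 ± 0.12 that did not pass (adjusted p = 0.0716, edgeR).

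Few MRPL transcripts passed the test between memory and no-memory cells. The comparison of memory with no-memory cells at the same minute asks what the earlier shock left behind, and here the scaling matters: with library totals alone, the median log2 difference over all genes shifted by 0.16 to 0.25 in favour of memory cells in these 6 comparisons, and by 0.044 to 0.20 in favour of heated cells in the 8 comparisons with 0 min. Differences below are relative to the TMM level of most genes. At 0 min, 0 members were called in mip6Δ by edgeR, with 0 also at an unadjusted p under 0.05, 0 by DESeq2 and 3 by limma on the normalised counts (median 0.013; all genes, 5.25% higher and 10.1% lower). With library totals alone 6 were higher in mip6Δ memory cells and the median was 0.17. Of all 6038 genes 1163 were then higher and 290 lower, and their median was also 0.17. In WT 0 were higher and 2 lower in memory cells (median -0.064; all genes, 5.45% and 9.94%). With library totals alone that WT median became 0.13, with 2 members higher and none lower. The median over all 6038 genes was then 0.21, with 1647 higher and 240 lower.

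The 2 were MRPL13 and MRPL19. MRPL13 (YKR006C), for mL50, had 49.7, 48.3 and 51.6 CPM in WT memory cells, against 57.5, 59.5 and 63.9 CPM in WT no-memory cells at 0 min. The groups did not overlap, and the log2 difference was -0.27 ± 0.067 (adjusted p = 0.00663, edgeR). MRPL19 had 41.6, 43.3 and 46.5 CPM in WT memory cells, against 50.5, 51.7 and 61.2 CPM in WT no-memory cells, a difference of -0.31 ± 0.11 (adjusted p = 0.0477, edgeR). Neither was called in mip6Δ (-0.015 ± 0.067 and -0.16 ± 0.11). Both lost the call without replicate 2 and without replicate 3, and MRPL19 also without WT memory 0 min replicate 1 (adjusted p = 0.135, edgeR), while MRPL13 did not (adjusted p = 0.0193, edgeR).

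The lowest of the remaining members was MRPL8 (YJL063C, bL17m), at -0.22 ± 0.084 in WT, which did not pass (adjusted p = 0.0706, edgeR). The highest were MRPL24 at 0.30 ± 0.17, MRPL33 at 0.17 ± 0.10 and MRPL4 at 0.064 ± 0.12, none of which passed. MRPL4 and MRPL33 are the counterparts of bacterial uL29 and uL30. MRPL33 had 23.8, 23.2 and 25.8 CPM in WT memory cells, against 22.6, 20.2 and 21.7 CPM in WT no-memory cells at 0 min. MRPL4 had 48, 42.7 and 53.1 CPM in WT memory cells, against 39.4, 43 and 55.2 CPM in WT no-memory cells at 0 min. At 0 min MRPL8 had 44.6, 42.5 and 47.9 CPM in WT memory cells, against 52.8, 51.8 and 53 CPM in WT no-memory cells. At 0 min MRPL24 had 28.8, 26.6 and 25.4 CPM in WT memory cells, against 25.5, 23.4 and 16.8 CPM in WT no-memory cells. Samples with the same replicate number deviated together in the WT comparisons of memory with no-memory cells, and with the replicate number as a block 5 members were called at 0 min in WT, 1 higher and 4 lower.

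In heated cells the memory differences of the MRPL genes were few, while those of the cytosolic ribosome were large. At 15 min in mip6Δ, 4 members were higher and 2 lower in memory than in no-memory cells (median 0.038; all genes, 21.3% higher and 17.8% lower), and in WT 6 were higher and 1 lower (median 0.071; all genes, 21.6% and 19.7%). At 20 min, 3 were higher and 0 lower in mip6Δ (median 0.069; all genes, 22.9% and 22.3%), and 2 were higher and 1 lower in WT (median 0.022; all genes, 21.8% and 22.5%). With the replicate block, the 20 min count was 5 in WT, and with the block within strain it was 5 in mip6Δ. Over the same comparisons, 73 to 75 of the 76 cytosolic large-subunit genes were higher in memory cells, with medians of 1.96 to 2.53.

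With library totals alone, 20 members at 15 min and 25 at 20 min were higher in mip6Δ memory cells, and 30 and 18 in WT memory cells, with none lower. Of all 6038 genes, 2546 and 2436 were then higher in mip6Δ memory cells, and 2791 and 2413 in WT memory cells. Leaving out replicate numbers left 0 to 4 members called in these comparisons, and the count was 0 at 20 min in WT without replicate 2 or without replicate 3.

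MRPL24 and MRPL23 recurred in these comparisons in opposite directions. MRPL24, for bL28m, was higher in memory cells in all 4 heated comparisons. At 20 min in mip6Δ it had 43.5, 40.8 and 36.8 CPM in memory cells, against 27.5, 29.6 and 21.7 CPM in no-memory cells, a difference of 0.62 ± 0.17 (adjusted p = 0.00419, edgeR), with no overlap. At 15 min in WT it had 42.2, 29.2 and 35.9 CPM in memory cells, against 24.2, 25 and 23.2 CPM in no-memory cells, a difference of 0.57 ± 0.17 (adjusted p = 0.00894, edgeR). MRPL24 had the largest SE of the members in these comparisons.

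MRPL23, the member with the largest rise in WT no-memory cells, was lower in memory cells at 15 min in mip6Δ (-0.24 ± 0.080, adjusted p = 0.0206, edgeR) and at 15 and 20 min in WT (-0.23 ± 0.080 at each). At 20 min in WT it had 49.6, 55.8 and 54.2 CPM in memory cells, against 59.8, 65.3 and 62.2 CPM in no-memory cells, without overlap.

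**Figure D5:**
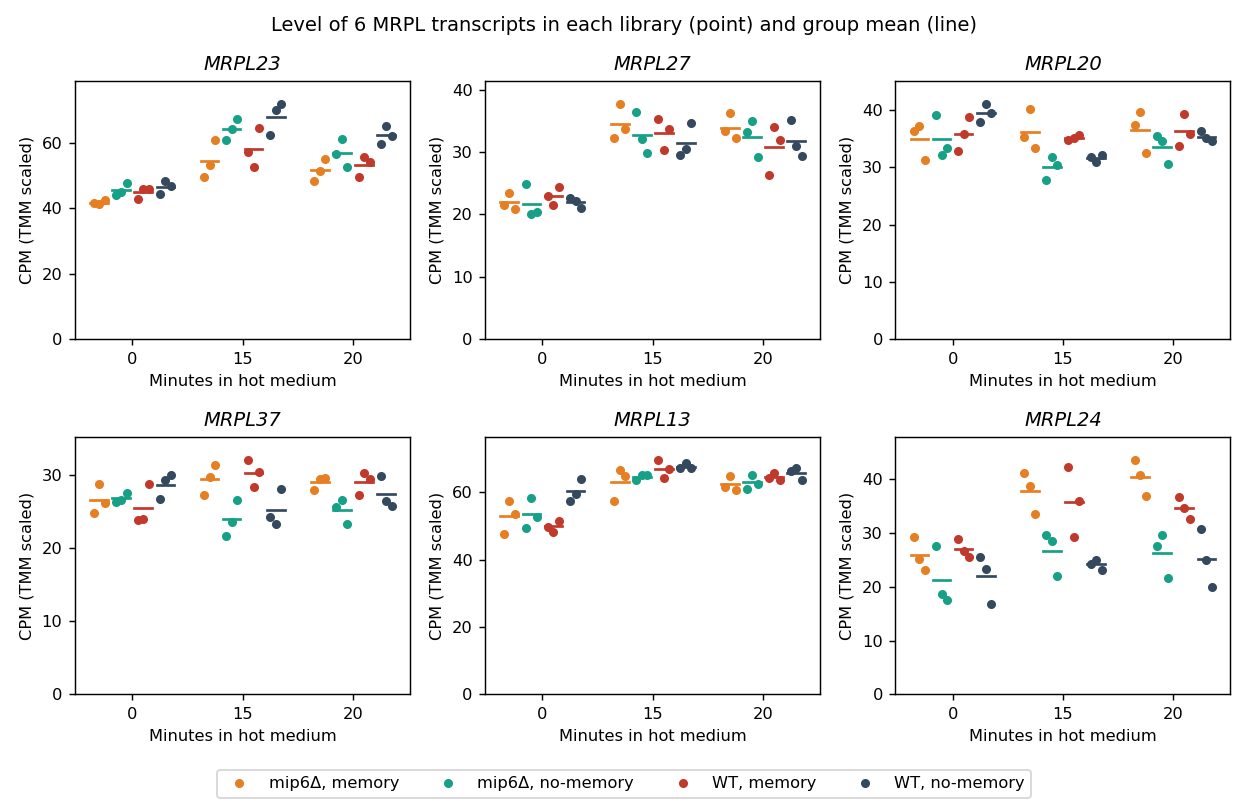
CPM (TMM scaled) of 6 MRPL transcripts at 0, 15 and 20 min in each library (points) and group means (lines) for mip6Δ memory, mip6Δ no-memory, WT memory and WT no-memory cells; the vertical axes start at 0. MRPL24 in heated cells lies higher in memory than in no-memory groups, by 0.62 on the log2 scale at 20 min in mip6Δ.

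Whether the heat response itself depended on memory was tested as an interaction, the response in memory cells minus that in no-memory cells. In WT at 15 min 1 member passed, where 10.8% of all genes did; 4 passed with the replicate number as a block, 7 with the block within strain, 3 by DESeq2 and 9 by limma, all with a positive estimate. MRPL37 had 32.0, 28.3 and 30.3 CPM at 15 min and 23.8, 24 and 28.8 CPM at 0 min in WT memory cells, against 24.2, 23.3 and 28.0 CPM at 15 min and 26.6, 29.2 and 30.0 CPM at 0 min in WT no-memory cells. It therefore rose in memory cells (0.24 ± 0.091, adjusted p = 0.0217, edgeR) with a negative estimate in no-memory cells, and the responses differed by 0.43 ± 0.13 (adjusted p = 0.0316, edgeR; 0.00396 to 0.36 over the alternatives). The call was lost without replicate 1 (0.36), without replicate 2 (0.36) and without WT memory 0 min replicate 1 alone (0.38, adjusted p = 0.103). In mip6Δ the same difference was 0.31 ± 0.13 and did not pass (adjusted p = 0.129, edgeR).

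The next highest in WT at 15 min were MRPL51 at 0.35 ± 0.13 and MRPL32 at 0.34 ± 0.14. MRPL32 encodes bL32m, whose maturation by the mitochondrial m-AAA protease is a known step of ribosome assembly. Neither passed (adjusted p = 0.0729 and 0.0959, edgeR). MRPL51 had 60.7, 48.4 and 59.7 CPM at 15 min and 36, 35.6 and 37.3 CPM at 0 min in WT memory cells, against 40.0, 46 and 49.6 CPM at 15 min and 38.4, 37.7 and 35.5 CPM at 0 min in WT no-memory cells. MRPL32 had 30.0, 25.6 and 29.7 CPM at 15 min and 22.6, 24 and 19.3 CPM at 0 min in WT memory cells, against 23, 22.4 and 24.2 CPM at 15 min and 22.1, 24.7 and 21.4 CPM at 0 min in WT no-memory cells. The lowest were MRPL23 at -0.18 ± 0.11, MRPL33 at -0.091 ± 0.14 and MRPL28 at -0.038 ± 0.13. The estimate was positive for 29 of 34 members at 15 min in WT (median 0.15; all genes, median 0.023), which is no test of the list. No member passed at 20 min in WT (2 at an unadjusted p under 0.05, 1 by DESeq2, 4 by limma, 3 with the replicate block and 4 with the block within strain; 9.89% of all genes passed), nor in mip6Δ at 15 min (3 unadjusted, 0 by DESeq2, 1 by limma; 9.61% of all genes) or 20 min (1 unadjusted, 0 by DESeq2, 1 by limma; 13.5% of all genes).

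Estimated differences of MRPL transcripts between mip6Δ and WT were small. No member was called between mip6Δ and WT in any of the 6 combinations of condition and time by edgeR, DESeq2 or limma. In each combination 0 to 3 members had an unadjusted p under 0.05. All genes gave calls in 0.0166% of tests in each no-memory combination and in 0.0331% in each memory combination. The median difference of the 34 members lay between -0.088 (no-memory, 0 min) and 0.013 (no-memory, 15 min), and the most extreme single estimates were -0.19 and 0.22. No member passed the test for a strain difference in the response to heat either, by edgeR, DESeq2 or limma. In each of the 4 tests 0% of all genes passed, and 0 or 1 members had an unadjusted p under 0.05. The 95% intervals were wide. At 15 min in no-memory cells they ran from 0.050 to 0.61 for the highest estimate (MRPL32) and from -0.29 to 0.18 for the lowest (MRPL23). The absence of a strain difference was therefore not shown.

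Averaged over the 6 combinations, which gives 18 libraries a strain, 1 member passed, where 1.14% of all genes did. The fit took the 18 as independent, although they carry 3 replicate numbers. Same-numbered libraries of a strain deviated together (median correlation between groups 0.25, against -0.098 for other numbers), so p-values here may be too small. MRPL8 was lower in mip6Δ by a log2 difference of -0.14 ± 0.034 (adjusted p = 0.0399, edgeR), and its estimate was negative in each of the 6 combinations, from -0.19 to -0.099. In no-memory cells at 0 min MRPL8 had 45.9, 50.4 and 43.5 CPM in mip6Δ, against 52.8, 51.8 and 53 CPM in WT, without overlap, and in memory cells at 20 min it had 51.2, 57.5 and 46.7 CPM in mip6Δ, against 50.9, 57 and 58.6 CPM in WT, with overlap. The call was lost without any single replicate number (-0.19 to -0.088). DESeq2 called 2 members, limma 6 and the replicate block 4, all lower in mip6Δ, and none was called with library totals alone.

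Summed over the 34 genes, the MRPL level in mip6Δ memory cells averaged 1296 ± 47.6, 1638 ± 76.9 and 1617 ± 50.6 CPM after 0, 15 and 20 min of heat (SD, n = 3), and 1294 ± 44.2, 1603 ± 16.3 and 1549 ± 67.2 in mip6Δ no-memory cells. In WT memory cells the sums were 1307 ± 41.5, 1685 ± 87.5 and 1607 ± 64.2, and in WT no-memory cells 1377 ± 14.5, 1618 ± 84.2 and 1585 ± 24.3. Every heated group thus lay above every 0 min group, by more than the spread between its replicates.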

How the data were processed

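Poly(A) RNA was sequenced from 36 yeast libraries (TruSeq Stranded mRNA). The authors trimmed reads with Trimmomatic, checked them with FastQC, aligned them to sacCer3 with HISAT2 and counted genes with StringTie; versions and the use of strand in counting are not given in the sources used here. The deposited count table holds whole-number counts per gene, and the deposited normalised counts, a signal that the authors filtered at a low CPM, scaled by TMM and corrected for hidden batch effects with ARSyN in NOISeq, served only in the limma alternatives. The study tested normalised values with NOISeq and maSigPro; here the counts were tested.

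Counts were analysed in R 4.3.3 with edgeR 4.0.16 (filterByExpr, TMM, robust glmQLFit, 12 group means, 24 residual degrees of freedom, Benjamini-Hochberg over 6038 genes); SE is the absolute log2 fold change over the square root of F. Alternatives used DESeq2 1.42.0, limma 3.58.1, other scalings, filters, a replicate block and leaving out libraries. On counts simulated for the WT no-memory 15 min comparison (6025 genes), the fit recovered 59% of log2 changes of 0.5 and 96% of changes of 1. For the WT memory effect on the 15 min response it recovered 26% and 87%. In the simulation 5825 genes were unchanged, and changed genes were drawn above a floor of mean CPM. In the data 35.9% of genes were called higher and 36% lower in that heat comparison, so its recovery rates may differ. Depth was 28270651 to 42233578 reads per library. Replicates, described as biological, differed beyond sampling noise (chi-square per degree of freedom 23.1 to 221), and p-values measure only the spread between these samples.

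Memory and no-memory flasks came from split cultures, but the labels do not say that a number marks a shared culture. Same-numbered samples correlated above 0.1 in every pair in 11 of 22 within-strain comparisons. Among these were all 3 WT comparisons of memory with no-memory cells and those of mip6Δ at 0 and 20 min, but not at 15 min.

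Genes named in the text are the 3 members with the lowest and the 3 with the highest estimates in WT for the no-memory response at 15 min, memory against no memory at 0 min and the memory effect on the 15 min response, the members with the highest and lowest level per length, members called between strains, up to 2 genes a direction from each comparison list, and MIP6, PUF3 and HAP4; other members named were singled out after their values were seen. The members and lists were chosen with earlier results of these data known. Motifs were searched with Python 3.11.15 in the RefSeq R64 genome, the same assembly as sacCer3; no reference transcript ends were used.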

Additional observations from a re-analysis of the deposited data

Results flagged for a closer look

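The heat response of MRPL37 differed between memory and no-memory WT cells at 15 min, by 0.43 ± 0.13 on the log2 scale (memory minus no-memory; adjusted p = 0.0316 for the interaction term, edgeR). The adjusted p ranged from 0.00396 to 0.36 over the alternatives, and the call was lost without replicate 1, without replicate 2 and without WT memory 0 min replicate 1. No other member passed such a test in edgeR with TMM factors and no block; library totals, the block, DESeq2 and limma each called more members in WT. Groups of 3 libraries are too small to screen for outlying samples, and no cause was weighed.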

How the results depend on the processing

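The counts of members in this paragraph are given without the share of all genes called in the same reduced fits. With 1 replicate number left out, the members called in WT no-memory cells numbered 15 to 23 at 15 min and 9 to 15 at 20 min; at 20 min they numbered 9 to 26 in WT memory and 11 to 23 in mip6Δ no-memory cells. For memory against no memory the ranges were 0 to 2 (WT, 0 min), 1 to 4 (WT, 15 min), 0 to 2 (WT, 20 min), 1 to 3 (mip6Δ, 15 min) and 1 (mip6Δ, 20 min), for the memory effect on the WT response at 15 min 0 to 1, and for the mean strain difference 0. Without WT memory 0 min replicate 1, chosen after seeing the data, 1 member was called for memory in WT at 0 min and 0 for its effect on the response at 15 min.

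With limma on log2(normalised count + 1) or + 10, memory against no memory gave 3, 10 and 6 calls in mip6Δ (0, 15 and 20 min) and 6 calls in WT both before heat and after 20 min. The memory effect on the response gave 9 and 4 in WT and 1 and 1 in mip6Δ at 15 and 20 min, and the mean strain difference 6. DESeq2 gave 3 and 1 for the WT memory effect on the response at 15 and 20 min and 2 for strain, and RLE factors gave 1 for memory in mip6Δ at 20 min. Library totals alone gave 30 and 18 for memory in WT at 15 and 20 min, 6, 20 and 25 in mip6Δ at 0, 15 and 20 min, 3 for its effect on the WT response at 15 min and 0 for strain. Of all 6038 genes, 2791 and 2413 were then higher in WT memory cells, and 1163, 2546 and 2436 in mip6Δ memory cells. For the effect on the WT response at 15 min, 622 genes were called higher and 140 lower. The cause of these changes was not tested.

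With the replicate block, memory against no memory in WT gave 5 calls both before heat and after 20 min, its effect on the WT response 4 and 3 at 15 and 20 min, and strain 4. With the block within strain these were 5 and 6, 7 and 4, and mip6Δ at 20 min gave 5. The block changed no other member count by over 1.5 times. In all, 66 of the alternative counts moved by over 1.5 times, or between 0 and any call, and 329 did not. The 329 include counts that were 0 both in the main fit and in the alternative. Of 239 alternative values for named members, 237 kept their direction; the others were single estimates near 0 of MRPL4 and MRPL28 that passed no test. At this depth counting error is small, and 3 libraries a group limit the precision.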
